A study of Drosophila melanogaster with 9 samples.

Results

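Ovaries with germline clones of the enok2 allele were compared with ovaries with wild-type germline clones (WT) by small RNA sequencing. The comparison takes the 3 libraries labelled enok2 and the 3 labelled WT, 6 of the 9 libraries of the series, chosen by their labels alone. The enok gene encodes a histone acetyltransferase of Drosophila melanogaster, and the study describes enok2 as a missense change of a conserved cysteine in its catalytic domain that leaves a full-length protein with impaired activity. All females of both groups carried the heat-shock recombinase hs-Flp over a wild-type chromosome (+). All also carried the recombination site FRTG13 on both homologues of the next chromosome, with the dominant female-sterile insertion ovo[D1-18] on one of them. The other homologue carried enok[2] in the enok2 females and no enok mutation in the WT females. Both groups had been heat shocked as larvae. In this system only egg chambers whose germline has lost the ovoD chromosome by recombination develop past the early stages, so the germline of the collected mid and late egg chambers was homozygous. The genotype of the follicle cells around it was not selected. All females were adults of 3-5 days, and total RNA was taken from their ovaries.

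Transposons of the gonad are silenced by Piwi proteins that find their targets through bound piRNAs (PIWI-interacting RNAs). They are cut from long precursors that come from piRNA clusters, genomic regions filled with transposon remnants, and some are cut from the 3′ untranslated regions (3′ UTRs) of ordinary genes. Clusters read on both strands, of which 42AB is the best known, are used in the germline and depend on the heterochromatin protein Rhino, whereas flam (flamenco) is read mainly from one strand and is the main source in follicle cells.

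Each value is an abundance that the authors normalized to each library's own microRNAs (miRNAs), given for 140 clusters and for 3′ UTRs, once for the sense and once for the antisense strand as the annotation of the cluster or gene defines them. Clusters are called by their number, except 42AB (cluster 1) and flam (cluster 8). In bulk tissue, fewer cells of a type and less RNA per cell cannot be told apart, and a change of the miRNAs themselves would move all values of a library alike. The reference needed to print sequences of clusters or 3′ UTRs was not used here. The low values of a library gathered at multiples of a step between 0.393 and 0.485. Taken as the value of 1 read, this step puts the clusters at 810903 to 1450121 read equivalents per library. Only 20.3% to 36.7% of low values lay within 0.006 units of a multiple, against 2.47% to 3.05% by chance, and whether clusters share reads was not tested. Replicates differed by a median of 0.06 to 0.14 on the log2 scale over sense clusters and by 0.19 to 0.26 over sense 3′ UTRs. The sources name no batch, and the p-values rest on the spread between these libraries. The limma fits pool this spread in part over features, and fully for sense clusters. Their p-values there do not measure the spread of a single cluster. As a check of the tissue, sense 3′ UTR small RNAs of tj, a follicle cell gene, were at 49.6, 54.1 and 62.9 in WT and 61.5, 52.7 and 56.1 in enok2, with overlapping groups. Those of osk, a germline gene, were at 8.93 ± 2.57 and 14.96 ± 1.94 (SD, n = 3). This WT mean is under the minimum of 10 used for the tests below, so osk passed through the mutant libraries. The other germline genes looked up (vas, nos, bcd, grk, aub and AGO3) had no feature tested. The eggshell genes, also of follicle cells, had a median log2 fold change of -0.50 and are described below. The check is therefore a limited one.

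The question of the comparison was which sources of piRNAs depend on functional Enok in the germline. Summed over clusters and strands, the abundance was 548223, 577728 and 577943 in the WT libraries and 438338, 393288 and 409063 in the enok2 libraries. The groups did not overlap, and the mean of enok2 was 72.8% of WT (2-sided exact permutation p 0.1, the smallest that 3 libraries against 3 can give). The net change of -154402 was made of summed losses of -212347 over 92 clusters and summed gains of 57945 over 48 clusters. The losses were carried by few clusters. Of the summed losses, 44.2% lay in 42AB, 15.1% in cluster 11, 8.07% in cluster 5, 5.195% in cluster 4 and 1.83% in cluster 97, or 74.4% in these 5. The shares of clusters 11, 4 and 97 in the cluster total ran downward from replicate 1 to replicate 3 within both groups. Whether these clusters share reads was not tested, so their losses may not be separate. The gains were spread more widely, with 15.2% in cluster 6, 10.3% in cluster 31, 9.81% in cluster 12, 7.05% in cluster 2 and 5.26% in cluster 10. The 10 largest gains held 70.3% of all gains. Without 42AB the total was 86.6% of WT, still with no overlap of the groups. Without 42AB and cluster 11, a choice made after seeing the data, it was 93.1% and the groups overlapped (exact permutation p 0.2).

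The clusters that fell most in abundance changed places with clusters that had been of middle rank. The order of clusters by mean abundance over both strands was 42AB, 11, 2, flam, 5, 3, 4, 17, 13 and 9 in WT, and cluster 2, flam, 42AB, 3, 6, 12, 26, 31, 17 and 37 in enok2. Thus 5 of the 10 highest clusters, and 17 of the 20 highest, were the same in both groups. Cluster 11 went from rank 2 to 16, cluster 5 from 5 to 17 and cluster 4 from 7 to 47. In the other direction, cluster 6 went from rank 13 to 5 and cluster 31 from 20 to 8. Of all 140 clusters, 22 moved by at least 20 ranks, 10 of them up and 12 down, and 58 moved by at most 5. Within a group, the ranks of a cluster spanned a median of 2 places and at most 15. Among clusters at rank 50 or better in either group, the largest gains of rank were those of cluster 112 (87 to 42), 32 (69 to 28), 73 (63 to 24), 82 (75 to 40) and 34 (54 to 23). The largest losses were those of cluster 97 (22 to 79), 4 (7 to 47), 85 (28 to 59), 115 (27 to 54) and 43 (41 to 67).

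Shares of the cluster total do not depend on the scaling to miRNAs, but they are tied to each other, since the loss at 42AB alone lifts the shares of the rest. The share of 42AB was 20.97%, 20.03% and 20.3% in the WT libraries and 5.65%, 5.18% and 5.30% in the enok2 libraries. The share of cluster 11 was 7.33%, 6.76% and 6.27% in WT and 1.74%, 1.502% and 1.35% in enok2. These shares were 26.3% and 22.6% of those in WT, with wide gaps between the groups. Cluster 5 went from 4.12% ± 0.07 to 1.52% ± 0.09 and cluster 4 from 2.35% ± 0.23 to 0.547% ± 0.07 (SD, n = 3). By contrast, cluster 6 rose from 1.54% ± 0.04 to 4.25% ± 0.16, cluster 31 from 0.898% ± 0.03 to 2.68% ± 0.08 and cluster 12 from 1.63% ± 0.07 to 3.61% ± 0.01. The exact permutation p of each share was 0.1. Over all clusters, the share lay above all WT libraries in every enok2 library for 89 clusters and below them for 33.

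**Figure D1:**
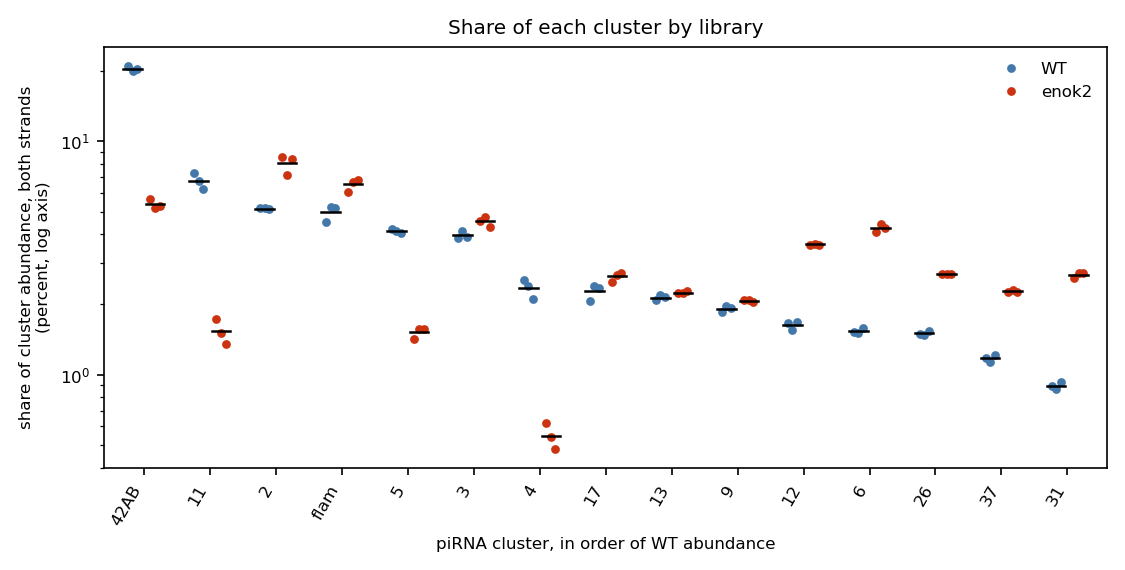
Share of each cluster in the abundance of all clusters on both strands, in percent on a log axis, for the 15 clusters that were among the 10 highest in WT or in enok2. Points are single libraries (blue WT, red enok2, n = 3 each) and bars are means. The share of 42AB fell from 20.4% to 5.38%, while the shares of clusters 12, 6, 26, 37 and 31 rose in all 3 enok2 libraries. Other shares did so too, among them those of cluster 2, flam and cluster 3.

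The piRNAs of enok2 ovaries came from more clusters at similar levels. The effective number of clusters (the inverse of the summed squared shares) was 16.0, 17.1 and 17.0 in the WT libraries and 36.7, 38.4 and 36.4 in the enok2 libraries. The fewest clusters that together held 50% of the abundance numbered 8, 8 and 9 in WT and 14 in each enok2 library. The 10 highest clusters of a library held 54.1% ± 0.67 in WT and 42.6% ± 0.39 in enok2. The difference was larger on the antisense strand, where the effective number went from 13.6 ± 0.72 to 42.8 ± 0.36, than on the sense strand, where it went from 15.4 ± 0.45 to 23.7 ± 1.2. The difference between the strands was not tested. Without 42AB the effective number was 34.9 ± 1.2 in WT and 37.3 ± 1.1 in enok2, a difference of 2.42 in place of 20.5, still with no overlap (exact permutation p 0.1). The fewest clusters holding 50% were then 13, 13 and 14 in WT and 15, 15 and 14 in enok2, with overlapping groups (exact permutation p 0.2). The 10 highest then held 44.4% ± 0.70 in WT and 41.7% ± 0.42 in enok2, with no overlap (exact permutation p 0.1).

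Grouped by their rank in WT, the clusters at WT ranks 1 to 10 together fell to 47.2% of WT, those at ranks 11 to 20 rose to 129.6%, and those at ranks 21 to 50 were at 86.1% (exact permutation p 0.1 each). The 50 clusters at ranks 51 to 100 were at 104.1% of WT (p 0.5), and the 40 lowest were at 86.5% (p 0.1). Classes by WT rank partly rest on the WT libraries compared, so a high rank favours a fall. By strand class, the 2 antisense-biased clusters (11 and 97, with at most 10% of their WT abundance sense) fell to 17.1% of WT. Whether these 2 share reads was not tested. The 5 sense-biased clusters (at least 90% sense) were at 88.7%, and the 133 others at 75.6%. Among the sense-biased clusters, cluster 4 fell to 16.3% of WT on the sense strand while cluster 2 and flam were not called there.

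By limma on log2(abundance + 1) at an adjusted p under 0.05, 109 of 140 clusters (77.9%) were called for their sense abundance, 71 lower (50.7%) and 38 higher (27.1%) in enok2 than in WT. For antisense abundance as many were called (77.9%), 76 lower (54.3%) and 33 higher (23.6%). Taken over both strands, 58 clusters (41.4%) were lower and 24 (17.1%) higher on both. A further 46 were called on one strand alone, 4 in opposite directions and 8 on neither. Most called changes were modest: 109 clusters lay within 2-fold of WT on both strands, and on each strand 17 were lower and 7 higher by 2-fold or more. The groups did not overlap for 70 sense clusters that were lower (50%) and 38 that were higher (27.1%), and for 81 (57.9%) and 33 (23.6%) antisense clusters. The median log2 fold change was -0.20 for sense and -0.24 for antisense abundance. A scaling that sets the libraries equal by their median ratio, with medians of 0.02 and -0.02, gave 54 lower and 59 higher sense clusters and 59 lower and 53 higher antisense clusters. Scaling to the cluster sum, with medians of 0.26 and 0.22, gave 31 and 86, and 37 and 82. On both strands, 41 clusters were then lower and 42 higher under the median of ratios, and 24 lower and 67 higher under the cluster sum. All 24 clusters first called higher on both strands remained so under both scalings, and 41 and 24 of the 58 lower ones did. With all 9 libraries in the fit, 38 were lower and 18 higher on both strands.

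The largest falls on both strands were those of clusters 42, 29, 78, 11, 33, 42AB, 4 and 132, in the order of their mean log2 fold change. Cluster 29 had 754, 760 and 770 sense units in the WT libraries and 45.1, 41.7 and 44.7 in the enok2 libraries, 5.76% of WT. Cluster 42 had 273, 233 and 270 antisense units in WT and 11.25, 11.2 and 20.4 in enok2, 5.51% of WT. In neither cluster did the groups come near each other, and the spread within a group was small beside the gap. Clusters 78 and 33 fell on the sense strand to 10.7% and 13.4% of WT (log2 fold changes -3.20 and -2.88). Cluster 132, which was mostly antisense, fell there to 19.2% (log2 fold change -2.39, SE 0.12, limma adjusted p 1.10e-16, or 2.17e-03 from its own variance). These small clusters made up 0.252% (cluster 29), 0.158% (33), 0.111% (78), 0.114% (132) and 0.074% (42) of the WT total, so that they add little to the summed loss. Clusters 85 and 115 were larger and fell less. Sense cluster 85 went from 1037, 1071 and 1092 to 285, 270 and 288, and sense cluster 115 from 3287, 3417 and 3384 to 1424, 1384 and 1416. All 8 clusters of the largest falls were called lower on both strands under every alternative tried, including each scaling and each library left out.

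The clusters with the largest rise on both strands were 73, 112, 34, 31, 32, 6, 68 and 71. Antisense cluster 73 rose most, from 758, 812 and 870 in the WT libraries to 2567, 2570 and 2480 in the enok2 libraries, 312.3% of WT. Its sense strand rose less, to 219.9%. Cluster 31 rose to 236.3% of WT on the sense strand (2191, 2301 and 2403 in WT and 5631, 5185 and 5474 in enok2) and to 201.2% on the antisense strand. Cluster 6 had 5649, 5835 and 6196 sense units in WT and 11883, 11617 and 11497 in enok2. In all of these the lowest enok2 library was above the highest WT library. Cluster 6 was the largest of the 8 in WT, at 8729 units over both strands, while cluster 71 held 177. All 8 were called higher on both strands under every alternative tried. Clusters 12, 26 and 37, each among the 10 highest of enok2, rose by less. Their sense abundance was 163.1%, 127.6% and 151.3% of WT, and their antisense abundance 159.4%, 135.0% and 131.2%.

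Among the highest clusters of WT, several changed little under the miRNA scaling. Flam was called on neither strand, with sense values of 22479, 27361 and 27269 in WT and 23856, 23926 and 25342 in enok2, and a log2 fold change of -0.07 (limma adjusted p 0.460). Antisense flam was at 2276, 2692 and 2628 in WT and 2709, 2377 and 2615 in enok2. The groups overlapped on both strands, and the sign of the sense value depended on the scaling. Scaled to the cluster sum it was 0.39 and called higher (limma adjusted p 8.24e-04). The share of flam in the cluster total was 4.96% ± 0.39 in WT and 6.53% ± 0.41 in enok2, without overlap. Sense cluster 2 was at 27726, 28969 and 28842 in WT and 36532, 27409 and 33380 in enok2, with enok2 replicate 2 below all WT libraries. It was not called (log2 fold change 0.18, adjusted p 0.0621), but was so without that library (0.29, adjusted p 4.14e-03). Antisense cluster 2 was called higher (0.26, adjusted p 0.0280), a call lost without enok2 replicate 1 (0.291), WT replicate 1 (0.244) or WT replicate 3 (0.125). Clusters 13 and 9 fell to 76.3% and 79.1% of WT in sense and to 76.6% and 78.5% in antisense abundance, with log2 fold changes between -0.39 and -0.34. Under the scaling to the cluster sum these became small positive values between 0.07 and 0.12, because their shares were above WT in every enok2 library. The 8 clusters called on neither strand were flam, 38, 47, 72, 90, 92, 95 and 140, and they lay between WT ranks 4 and 104.

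Whether the strands of a cluster changed alike was tested on the difference of their log2(abundance + 1) values, in which the scaling of a library cancels except at low values, where the added 1 counts. This strand balance was called different in 99 of the 140 clusters (70.7%), 58 towards sense (41.4%) and 41 towards antisense (29.3%). The sense percentage lay above all WT libraries in 60 clusters (42.9%) and below them in 48 (34.3%). The shifts were mostly small, with a median size of 0.29 on the log2 scale over all clusters. At 0.5 or more there were 15 towards sense and 13 towards antisense, and at 1 or more 4 and 3. With each cluster's own variance 84 were called, 48 towards sense and 36 towards antisense. A shift of balance was found among clusters that fell and that rose: 35 of the 58 clusters lower on both strands were called, 20 towards sense, and 15 of the 24 higher ones, 8 towards sense. In the 99, the shift was towards the strand that was minor in WT in 60 and towards the major one in 39.

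**Figure D2:**
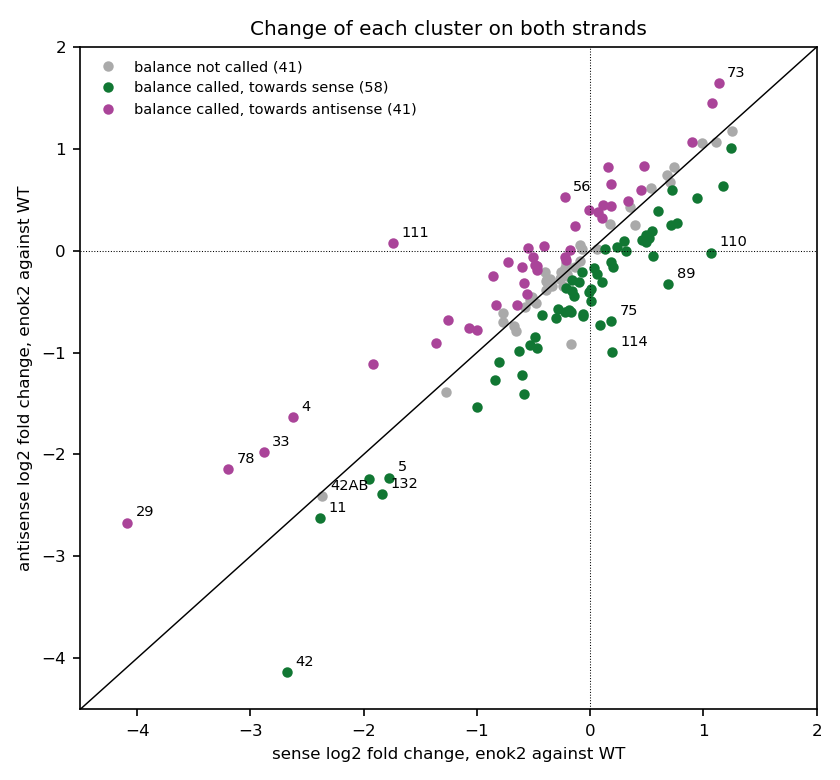
Log2 fold change of each of the 140 clusters on the sense (x axis) and antisense (y axis) strand, enok2 against WT. The diagonal marks equal change, and colours show whether the strand balance was called by limma. Clusters 29, 78, 33 and 4 lie above the diagonal, having lost more sense than antisense, and cluster 42 lies below it. 42AB lies near the diagonal at -2.36 and -2.41.

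The largest shifts towards antisense were those of clusters 111, 29, 78, 4 and 33. The antisense level of cluster 111 overlapped between groups (52.1, 50.2 and 64.2 in WT, 62.5, 55.2 and 57.3 in enok2) while its sense level fell to 28.4% of WT (53.6, 51.2 and 73.1 against 16.4, 18.5 and 15.6). Its balance changed by -1.82 (SE 0.09, limma adjusted p 1.81e-05, or 1.94e-03 from its own variance), and it was the cluster with the largest shift, although one of the lowest in abundance. Cluster 29, by contrast, fell on both strands, with log2 fold changes of -4.09 and -2.67, and 54.4%, 52.5% and 52.8% sense in WT became 31.9%, 27.5% and 29.4% in enok2. Cluster 4 was nearly all sense, and the percentage moved only from 95.4 ± 0.31 to 91.2 ± 0.83, although sense fell to 16.3% and antisense to 32.2% of WT.

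The largest shifts towards sense were those of clusters 42, 114, 110, 89 and 75. Cluster 42 went from 36.9%, 40.1% and 38.1% sense in WT to 66.4%, 68.9% and 56.1% in enok2 (balance change 1.46, SE 0.18, limma adjusted p 2.95e-04, or 9.50e-03 from its own variance). Cluster 110 was listed with higher sense values (198, 214 and 223 against 483, 373 and 483) and with 4.7 to 5.95 antisense units in all 6 libraries. The study left out clusters 110 and 128 for want of uniquely mapping reads in WT, so these values cannot be assigned to cluster 110 itself. The values of cluster 114 were near those of single reads, with antisense at 2.85, 3.14 and 3.03 in WT and 0.95, 1.08 and 0.99 in enok2. Its balance change of 1.19 became 1.69 with a pseudocount of 0.1 and 0.38 with 10, so its place in this order rests on that choice. Cluster 89 rose on the sense strand (584, 652 and 650 against 1212, 864 and 999) and fell on the antisense strand (998, 1070 and 1094 against 891, 804 and 828). No enok2 library overlapped WT on either strand. The antisense fall was not called with all 9 libraries of the series in the fit (adjusted p 0.069) and became a rise of 0.13 when scaled to the cluster sum.

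Clusters 56, 75 and 114 were also called in opposite directions on their strands. In each, one strand had a small change that depended on single libraries. Sense cluster 56 had a log2 fold change of -0.22, a call lost when WT replicate 2 (adjusted p 0.0863), WT replicate 3 (0.106) or enok2 replicate 2 (0.0629) was left out, and 0.23 when scaled to the cluster sum. Its antisense strand went from 786, 821 and 881 to 1358, 1012 and 1244. The sense rises of clusters 75 (0.19) and 114 (0.20) were lost without any of the 3 WT replicates (adjusted p 0.0546 to 0.120 and 0.052 to 0.124). They were also lost without enok2 replicate 1 (0.257) or 3 (0.104) for cluster 75 and without enok2 replicate 2 (0.477) for cluster 114. The number of clusters called in opposite directions ranged from 1 to 3 over the libraries left out, was 0 with all 9 libraries in the fit, 1 with own variances, and 14 and 12 under the median of ratios and the cluster sum. The balance of these 3 clusters, which tests the difference itself, was called in every alternative that included it.

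A further case was cluster 3, at rank 6 in WT and 4 in enok2. Its sense strand fell (12105, 13052 and 12588 in WT, 9145, 8737 and 7953 in enok2) while its antisense strand was at 9106, 10839 and 9934 in WT and 10896, 9948 and 9522 in enok2. The log2 fold changes were -0.55 (limma adjusted p 4.43e-09) and 0.02 (0.814), and the balance changed by -0.57 (7.18e-05). The sense call was lost when scaled to the cluster sum. The major strand of cluster 3 was therefore sense in WT (55.9% ± 1.2) and antisense in enok2 (46.0% ± 0.69 sense). Such a change of the major strand occurred in 21 clusters, 11 of them from antisense to sense, and in 15 it held for every library. In WT these 21 clusters were between 37.4% and 59.3% sense. The major strand of 42AB, cluster 2, flam, cluster 5 and cluster 11 was kept. In 42AB the sense percentage was 53.7, 52.8 and 54.2 in WT and 54.8, 53.8 and 54.6 in enok2, and the balance was not called (adjusted p 0.334). Cluster 5 moved from 69.6% ± 0.33 to 75.9% ± 1.2 sense (balance change 0.46, adjusted p 3.04e-04).

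**Figure D3:**
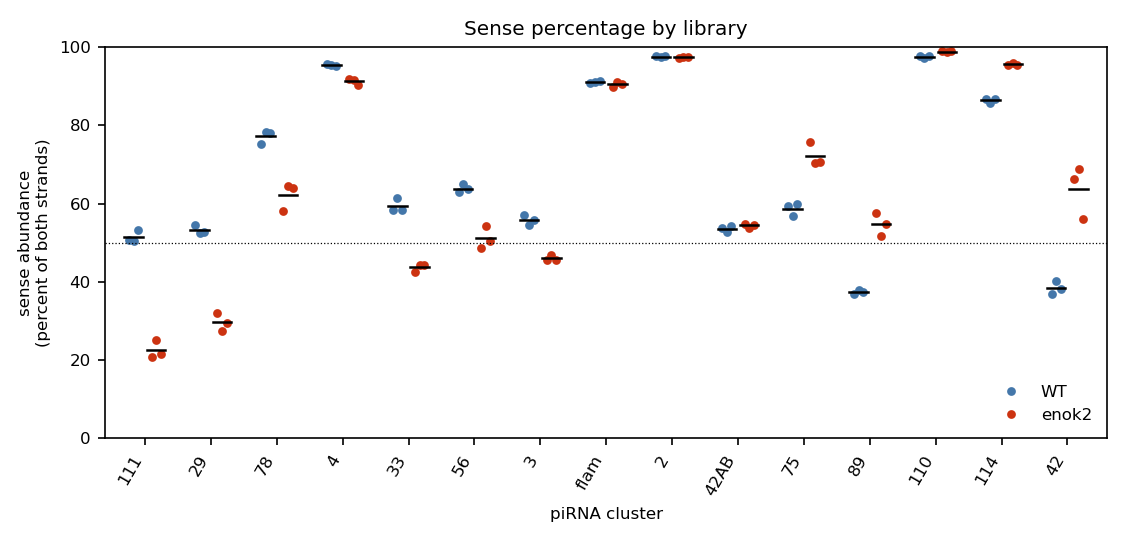
Sense abundance as a percentage of both strands for 15 clusters, by library (blue WT, red enok2, bars are means, n = 3 each); the dotted line is at 50%. Clusters 111, 29, 33 and 3 crossed from above to below the line and clusters 89 and 42 from below to above it, while the groups overlapped for 42AB, flam and cluster 2.

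Summed over clusters, 54.9%, 55.0% and 55.5% of the abundance was sense in the WT libraries and 58.1%, 57.6% and 58.4% in the enok2 libraries. This shift of the whole was absent without cluster 11. Without cluster 11, which was 6.99% sense in WT and fell to 16.3% of WT on its antisense strand, the values were 58.7% ± 0.13 and 58.8% ± 0.42 (exact permutation p 0.6). Without both 42AB and cluster 11, they were 60.1% ± 0.11 in WT and 59.1% ± 0.42 in enok2. The groups then did not overlap, with enok2 lower (exact permutation p 0.1). These clusters were chosen after seeing the data.

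Small RNAs from genic 3′ UTRs were not lower in sum on the sense strand. Their summed sense abundance was 22558, 23020 and 21165 in the WT libraries and 23238, 23870 and 22933 in the enok2 libraries, 104.9% of WT (exact permutation p 0.2), with overlapping groups. The ratio of the cluster total to this sum was 24.3, 25.1 and 27.3 in WT and 18.9, 16.5 and 17.8 in enok2, a measure that is free of the miRNA scaling. The antisense sum was small and lower in enok2 (1495 ± 71.7 against 1360 ± 21.7, exact permutation p 0.1). The eggshell genes, which varied widely between libraries of both groups, held 3808 to 6819 of the sense sum in WT. Without them the sum was 110.7% of WT with no overlap (p 0.1). The sense sum, and so the ratio above, also holds features of non-coding RNAs. These were at 2562 in WT and 2216 in enok2, 86.5% of WT, with overlapping groups.

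Sense 3′ UTR features were tested where their abundance averaged 10 or more in the whole series. Of these 298, 70 were called (23.5%): 17 (5.70%) from 16 genes were lower and 53 (17.8%) from 42 genes were higher in enok2 (limma, adjusted p under 0.05). The median log2 fold change was 0.06, and 275 (92.3%) lay within 2-fold of WT. The whole series holds more mutant than WT libraries, so the minimum admits features high in the mutants more readily than features high in WT. Of the 53 rises, 19 had a WT mean under 10. Left out were 19 sense features at 10 or more in WT and 17 at 10 or more in enok2. The counts also depended on the processing. With each feature's own variance they were 8 and 29. Leaving out 1 library gave 8 to 17 lower and 29 to 48 higher, with 8 lower without WT replicate 3, 9 without enok2 replicate 2, 11 without enok2 replicate 1 or 3, and 29, 31 and 33 higher without enok2 replicate 3, enok2 replicate 1 and WT replicate 1. The median of ratios, which lifts the 3′ UTR values of enok2 to a median log2 fold change of 0.27, gave 10 and 83, and the cluster sum (0.49) gave 7 and 157. The groups did not overlap for 36 features that were lower (12.1%) and 77 that were higher (25.8%).

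The largest called sense falls without overlap of the groups were at stnA, a synaptic vesicle protein gene, CG12581 and the non-coding RNA CR34335. The 3′ UTR of stnA (chromosome X, start 22387141 in dm3) was at 45.02, 34.3 and 49.1 in the WT libraries and 8.98, 5.34 and 8.44 in the enok2 libraries. CG12581 (chromosome 3R, start 9772) was at 43.7, 42.02 and 48.9 in WT and 12.8, 14.2 and 13.2 in enok2, and its antisense small RNAs went from 13.4 to 2.09. CR34335 (chromosome X, start 3439895) was at 400, 381 and 326 in WT and 135, 98.6 and 119 in enok2. All 3 were separated by a wide gap, with log2 fold changes of -2.36, -1.67 and -1.65. Next came udd, which encodes a factor of ribosomal RNA transcription, then Hsp27, a small heat shock protein, CG40160 and CG40191, whose falls lay between -1.51 and -1.27. CG40160 and CG40191 were placed on the sequences named 3LHet and 2RHet in dm3. Hsp27 was at 16.4, 24.5 and 14.0 in WT and 4.96, 4.37 and 11.4 in enok2, and lost its call without enok2 replicate 1 (adjusted p 0.0598) or 2 (0.0593). The last in this order were PMCA, a calcium pump of the plasma membrane (-0.89), luna, a zinc finger factor (-0.78), and Lime (-0.77). The small non-coding RNA CR43603 had a value of -0.90 without overlap (77.2, 59.1 and 152 against 49.2, 45.6 and 46.3) but was not called (adjusted p 0.0604). The call of PMCA was lost without WT replicate 2 (0.0540) or 3 (0.0726) or enok2 replicate 1 (0.0586) or 3 (0.0734), and that of Lime without WT replicate 3 (0.0718) or enok2 replicate 1 (0.0657).

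The largest sense rises were at Amun and fok. Amun (chromosome X, start 11604153) was at 12.2, 10.4 and 13.9 in WT and 68.9, 51.7 and 57.2 in enok2, and a second feature at 11604857 rose alike (log2 fold changes 2.19 and 2.11). The stronger feature of fok (chromosome 2L, start 20081606) was at 183, 158 and 194 in WT and 750, 613 and 700 in enok2, and a second feature rose from 11.01, 11.2 and 8.77 to 20.3, 20.9 and 20.01. Other rises were at a transcript with no symbol (NM_001259205, 1.63), Kmn1, a kinetochore protein (1.54), glec, a carbohydrate-binding protein (1.48), Hmu (1.42), the ubiquitin ligase gene ari-1 (1.30), Zpr1, a zinc finger protein (1.30), the kinase gene Stlk (1.25) and Mical, an enzyme that acts on actin (1.14). Each of these was without overlap of the groups, as were all 53 called rises. In these last 8 genes the WT libraries ranged from 4.39 (glec) to 64.1 (ari-1). In Kmn1, glec, Stlk and the second feature of Amun the WT mean was under 10, as in 19 of the 53, so they reached the minimum through the mutant libraries, where they are high. For Zpr1 the WT libraries were at 18.6, 18.8 and 19.2 and the enok2 libraries at 52.5, 42.8 and 49.1.

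**Figure D4:**
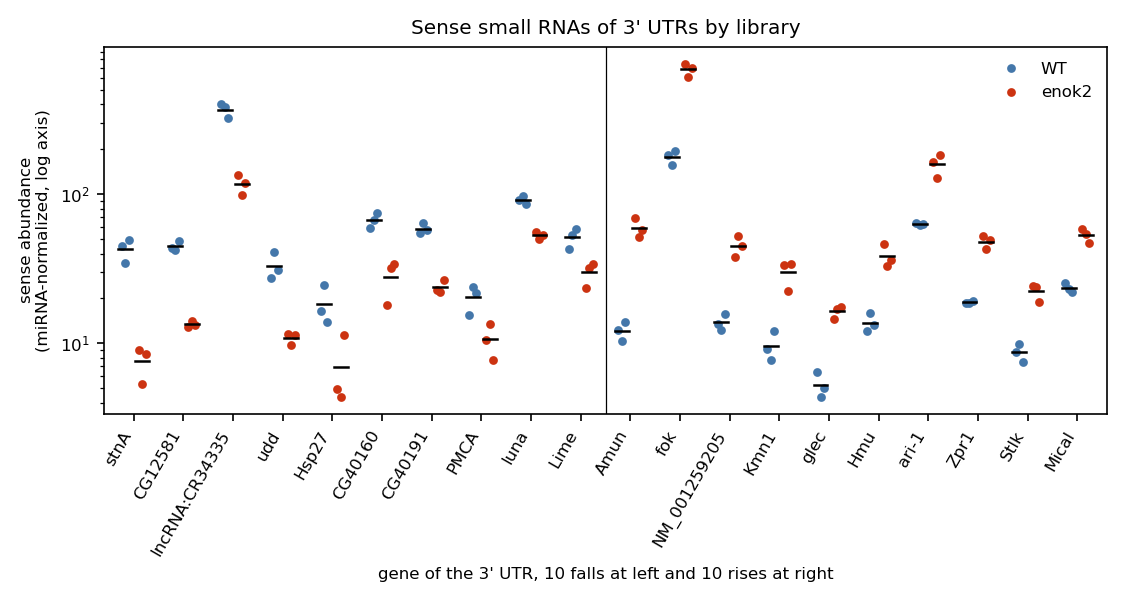
Sense abundance, on a log axis, of the 3′ UTRs with the 10 largest called falls and the 10 largest called rises without overlap, 1 feature per gene, by library (blue WT, red enok2, bars are means, n = 3 each). The groups do not overlap in any of the 20, which is part of how they were chosen; the WT and enok2 libraries of stnA lie at 34.3 to 49.1 and 5.34 to 8.98, and those of fok at 158 to 194 and 613 to 750.

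Of the 10 genes with the strongest sense 3′ UTR features in WT, CR34335 and Cp19 were called lower, fok was called higher and the other 7 were not called. Cp15, a chorion gene, was at 5542, 4590 and 2682 in WT and 3438, 5594 and 2870 in enok2, a wide spread within both groups. Fragments of 7SL RNA, the RNA of the signal recognition particle, were at 882, 640 and 709 in WT and 682, 880 and 764 in enok2. Myc, a growth regulator, was at 334, 383 and 378 in WT and 364, 370 and 375 in enok2. In all 3 the groups overlapped.

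Lists chosen from general knowledge of the ovary were read against the 5.70% lower and 17.8% higher over all features. These shares rest on the minimum, which more readily admits features high in the mutants. Of the 3 known 3′ UTR sources of follicle cells, tj and brat had 4 features tested and none was called, with log2 fold changes between -0.28 and 0.04. Of 10 eggshell features tested, 1 was lower, with a median of -0.50. That feature was Cp19, at 245, 109 and 196 in WT and 118, 69.0 and 45.9 in enok2, with overlapping groups. Its call was lost without WT replicate 1 (adjusted p 0.103) or 3 (0.114), or enok2 replicate 2 (0.102) or 3 (0.109), and the summed eggshell abundance was 3808 to 6819 in WT and 3291 to 6187 in enok2. The stages present in each library were not examined. All 4 features tested of oocyte patterning genes were higher, 1 of osk, the determinant of the posterior pole, and 3 of sqd, an RNA-binding protein that localizes maternal transcripts, at 0.52 to 0.72. The osk feature and the sqd feature starting at 9460914 had WT means under 10 (8.93 and 8.96). They reached the minimum through the mutant libraries, so their rise is partly a condition of being tested. The osk feature was at 6.0, 10.8 and 10.03 in WT and 13.2, 14.6 and 17.1 in enok2. Its call was lost without any 1 library except WT replicate 2 (adjusted p 0.0643 to 0.125), as was that of 1 of the sqd features without any except WT replicate 1 (0.0907 to 0.174). Another sqd feature lost its call without WT replicate 1 (0.0614), enok2 replicate 1 (0.0736) or enok2 replicate 3 (0.0772). Of the piRNA pathway genes only Hel25E, an RNA helicase used for cluster transcripts, had a feature tested, at 10.4, 12.8 and 11.7 in WT and 20.8, 16.0 and 21.2 in enok2 (0.68). It was not called without WT replicate 1 (0.055) or 3 (0.0549) or enok2 replicate 1 (0.0657) or 3 (0.0734). Of 13 ribosomal protein features 1 was higher (RpL3, 0.65, while its other 2 features were not called) and of 21 features of non-coding RNAs 2 were lower and 1 higher. The single histone feature tested was not called (0.07).

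By chromosome, the X had 78 features tested, of which 3 were lower and 18 higher, with a median of 0.11. Chromosome 2R had 5 lower and 10 higher of 41, chromosome 3R 2 and 13 of 58, chromosome 2L 1 and 8 of 51 and chromosome 3L 2 and 3 of 53. Chromosome 4 had 2 lower and none higher of 12 and a median of -0.20. These counts stand beside 5.70% lower and 17.8% higher over all features, and no difference between chromosomes was tested. The same minimum, which more readily admits features high in the mutants, lies behind all of them. Both lower features of chromosome 4 belong to PMCA, and the call of the weaker one was lost without any of 5 of the 6 libraries (adjusted p 0.0547 to 0.0726). The summed sense abundance of chromosome 4 was 756, 953 and 1000 in WT and 740, 681 and 755 in enok2. Each enok2 library was below each WT library, but by a narrow gap (exact permutation p 0.1). This sum includes the non-coding snoRNA:CD-24 (mean 246 in WT and 157 in enok2) and PlexA (176 and 134). Neither was called (limma adjusted p 0.0714 and 0.203), and their groups overlapped. The summed antisense abundance of chromosome 4 fell to 64.6% of WT (143, 164 and 158 against 100.1, 103 and 97.01). The antisense sum of chromosome X also fell without overlap, to 79.6% of WT (360, 396 and 394 against 290, 303 and 322). That of 2L, 2R, 3L and 3R together was at 99.3% and that of pericentromeric and unplaced sequence at 105.3%, both with overlapping groups. The latter class was set by sequence name alone (names with Het, U or Uextra). Features placed on the named chromosomes, such as stnA on X and CG40006 on 2L, count with those chromosomes whatever their position. On pericentromeric and unplaced sequence 5 features were tested, 2 lower and 1 higher.

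On the antisense strand of 3′ UTRs, 23 features passed the same minimum and 12 were called (52.2%), of which 7 (30.4%) were lower and 5 (21.7%) higher. The groups did not overlap for 11 lower (47.8%) and 4 higher (17.4%) features. The lower ones were luna (-1.53), CG40191 (-1.13), the homeobox gene scro (-0.87), Rnf11 (-0.82), udd (-0.81), the cell adhesion gene nrm (-0.65) and CG1463 (-0.34). Antisense luna was at 27.7, 41.0 and 31.8 in WT and 11.4, 9.78 and 11.3 in enok2. These values were within 1.83% of those of sense udd in every library, and whether the same reads were counted at both genes was not tested. Antisense udd was at 70.0, 77.2 and 66.4 in WT and 41.4, 38.4 and 40.8 in enok2. CG40191 was lower on both strands, on the sense strand from 55.1, 64.0 and 57.2 to 22.8, 22.2 and 26.4. The other antisense feature of Rnf11 was not called (-0.09, limma adjusted p 0.540). The call of CG1463 was lost without WT replicate 2 (adjusted p 0.0685) or 3 (0.0976) or enok2 replicate 1 (0.154) or 2 (0.177).

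The higher antisense features were CG40006, nAChRalpha4, rl, CR31144 and CG31211. CR31144 is annotated as an antisense RNA, so its antisense strand is defined against that RNA and not against a protein-coding gene. CG40006, on chromosome 2L at start 22515149, was at 1.80, 2.39 and 1.25 in WT and 24.1, 23.1 and 25.1 in enok2 (log2 fold change 3.18, SE 0.15). It passed the minimum only through the mutants, so it had to differ to be tested. Antisense nAChRalpha4, a subunit of an acetylcholine receptor, was at 9.48, 13.4 and 10.2 in WT and 26.9, 33.1 and 29.3 in enok2. Antisense rl, the gene of the MAP kinase Rolled in the heterochromatin of chromosome 2R, was at 23.8, 22.5 and 28.3 in WT and 56.6, 56.8 and 57.6 in enok2, and its sense level rose as well, from 15.3 to 23.6 (0.61). In these 3 the groups were far apart. The rises of CG31211 (0.44) and CR31144 (0.45) were small, the groups of CR31144 overlapped, and its call was lost without WT replicate 1 (adjusted p 0.0985) or 3 (0.0976) or enok2 replicate 2 (0.0776).

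**Figure D5:**
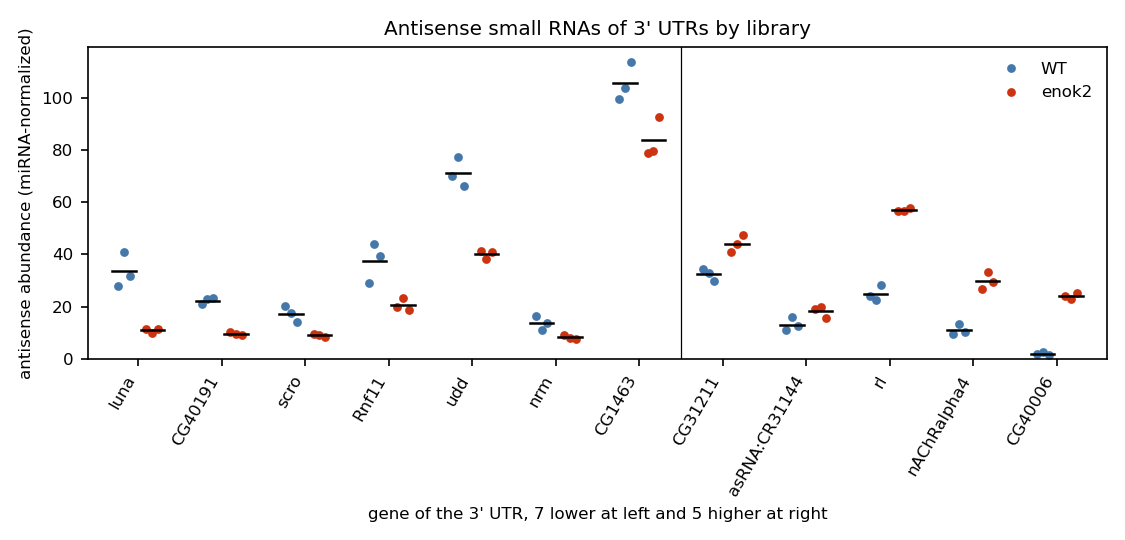
Antisense abundance of the 12 called 3′ UTR features, by library (blue WT, red enok2, bars are means, n = 3 each), with 7 lower ones at left and 5 higher ones at right. CG40006 went from 1.25 to 2.39 in WT to 23.1 to 25.1 in enok2, and the groups of CR31144 overlap.

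The minimum was set on the mean of all 9 libraries and so left out some features that were at 10 or more in WT or in enok2 alone, 36 sense and 6 antisense features. They were not tested, and the following were chosen after their values were seen. Antisense small RNAs of PlexA, a semaphorin receptor gene on chromosome 4, were at 25.2, 22.8 and 19.0 in WT and 0.08, 0.51 and 1.21 in enok2. The sense small RNAs of the nearby Pax6 gene toy were at 20.6, 13.0 and 17.5 in WT and 0.47, 0.01 and 1.19 in enok2. Those of sense PlexA were at 138, 210 and 179 in WT and 119, 131 and 151 in enok2, with overlapping groups. Whether toy and antisense PlexA share reads was not tested. Antisense msl-2, a gene of X chromosome dosage compensation, was at 11.7, 8.13 and 11.3 in WT and 0.26, 0.69 and 0.60 in enok2, while sense msl-2 was called higher (7.10, 6.69 and 8.65 against 10.4, 12.5 and 12.3). The WT mean of sense msl-2 was 7.48, so it reached the minimum only through the mutant libraries, where it is high. Sense CNPYb was at 12.01, 7.98 and 15.04 in WT and 0.47, 0.97 and 2.75 in enok2. In the other direction, sense Rip11 was at 0.40, 4.39 and 1.67 in WT and 16.6, 6.80 and 10.6 in enok2.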

How the data were processed

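The deposited tables hold a non-negative signal with 1 column per library, which the authors had scaled to miRNAs. By the study's methods, reads of 18-30 nt inserts were processed with piPipes on dm3, allowing no mismatch and keeping unique mappers. Most low values are not whole steps, and clusters that the study describes as without unique mappers in WT hold values here, so the deposited values may include other reads. The submitters' processing notes name Trimmomatic. For the tests, limma 3.58.1 under R 4.3.3 was run on log2(abundance + 1), with WT and enok2 only, without an intensity trend, with Benjamini-Hochberg adjustment over all features of a table. The sense cluster fit gave every cluster the same SE of 0.09, so its adjusted p-values are very small. The strand balance is log2(sense + 1) minus log2(antisense + 1). For totals and shares, exact permutation tests were 2-sided. The 8510 3′ UTR features were reduced to 4601 by merging duplicates of position and values; 8346 (98.1%) matched a RefSeq symbol of Release 6, used for names only. The members and lists were chosen with earlier results of these data known. Named were 42AB, 2, 5 and flam, the 10 highest WT clusters, the 8 largest falls and 8 rises called on both strands, clusters called in opposite directions, the 5 largest balance shifts each way and rank moves each way, the 10 largest called sense 3′ UTR falls and rises without overlap, called antisense features, and list members. Exceptions are said to be chosen after seeing values; the 5 clusters with the largest losses and gains, the clusters among the 10 highest of enok2, and the chromosome counts were too. Clusters 70 and 107 were not analysed here. Simulated data were used to test the limma fits. Alternatives were the pseudocount (0.1 and 10), scaling, variance, trend, all 9 libraries, minimum abundance, replicate block and leaving out each library.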

Additional observations from a re-analysis of the deposited data

How the results depend on the processing

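Of 125 called values named, 90 kept call and direction under every alternative run, 32 lost the call in at least one and 9 reversed. Scaling moved clusters most: to the cluster sum, 31 sense clusters were lower and 86 higher, and 37 antisense clusters lower and 82 higher; by the median of ratios 59 sense and 53 antisense clusters were higher. Scaled to the cluster sum, log2 fold changes turned positive for flam (sense, 0.39), 17 (sense 0.061, antisense 0.25), 13 (0.068 and 0.074), 9 (0.12 and 0.11), 56 (sense, 0.23), 89 (antisense, 0.13), 110 (antisense, 0.37) and antisense CG1463 (0.12); by the median of ratios, so did antisense 17 (0.0093) and antisense 110 (0.17). The strand balance calls ranged from 86 to 95 over the libraries left out. Sense 3′ UTR calls were 164 (7 lower, 157 higher) scaled to the cluster sum, 10 lower and 83 higher by the median of ratios, 37 (8 and 29) with own variance, 34 (10 and 24) with no minimum and 32 (9 and 23) at a minimum of 30, and with 1 library left out 40 to 62 (8 to 17 lower, 29 to 48 higher). Antisense 3′ UTR calls were 37 (26 and 11) with no minimum, where over 50% of the residual variances were 0 and the moderated fit is not reliable, 5 (3 and 2) at a minimum of 30, and 4 lower and 8 higher scaled to the cluster sum. The cluster total was 86.6% of WT without 42AB and 93.1% without 42AB and cluster 11. The share of 42AB in enok2 was 27.6% of that in WT on the antisense strand. The effective number of clusters was 106.9% of WT without 42AB. The sense 3′ UTR total was 107.3% of WT with every feature counted, 110.7% without eggshell genes, and 102.4% to 106.8% with 1 library left out; the antisense total was 89.2%, and 88.6% to 92.7%. The cause of these shifts was not tested beyond the construction of each alternative. Labels give both groups replicate numbers 1 to 3, but deviations of same-numbered libraries from their group means correlated at 0.29, -0.05 and 0.22 over sense clusters, so the numbers were not taken as pairs. With the number as a replicate block, 99 sense clusters (66 lower, 33 higher), 104 antisense clusters, 96 strand balances, 69 sense and 11 antisense 3′ UTRs were called. If the step is taken as a read, 1 read is worth 0.393 to 0.485 units; how the calls depend on depth was not tested.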
